A study of Homo sapiens with 24 samples.

Results

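The genes described here encode the proteasome, the protease complex that degrades ubiquitin-tagged proteins. They were taken by symbol, as every gene whose name is PSM followed by a letter from A to G and a number, and the choice used no measured value. This gave 49 genes of 36481 in the deposited table, with 48 different symbols, because PSMA1 stands there under 2 identifiers. RNA sequencing was done in Hs578T and SKBR7, long-established lines of triple-negative breast cancer. In each, 3 libraries came from co-treatment with lapatinib (3.16 μM) and PHA-767491 (1 μM), 3 from lapatinib alone (3.16 μM), 3 from PHA-767491 alone (1 μM) and 3 from DMSO (0.1%), which gave 8 groups and 24 libraries, all taken after 6 h. Lapatinib inhibits the EGFR and HER2 kinases, and PHA-767491 inhibits both cdc7, a kinase of DNA replication, and CDK9, a kinase that RNA polymerase II needs for productive elongation. The replicates are called triplicates with no word on separate cultures, so a p-value here covers the spread among these libraries and nothing wider. Each line is a single cultured line and stands for itself only.

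The proteasome has a barrel-shaped core of stacked rings, in which the alpha subunits (PSMA genes) form the gates and the beta subunits (PSMB genes) hold the active sites. PSMB5, PSMB6 and PSMB7 carry the chymotrypsin-like, caspase-like and trypsin-like activities. In the immunoproteasome, which is induced by interferon and favours peptides for MHC class I presentation, PSMB8, PSMB9 and PSMB10 take the places of PSMB5, PSMB6 and PSMB7. The regulatory particle recognises and unfolds substrates with its ATPases (PSMC genes) and non-ATPase subunits (most PSMD genes), while PSMD5, PSMD9 and PSMD10 are chaperones of its assembly. PSME1 and PSME2 form the PA28 activator, PSME3 the nuclear PA28 gamma, PSME4 the PA200 activator, PSMF1 is an inhibitor, and PSMG1 to PSMG4 are chaperones that build the core. PSMA8 belongs to the testis and PSMB11 to the thymus.

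Promoter sequences are shown for 5 members that moved with co-treatment, as described further on. PSME4 and PSMC6 were lower and PSMA6 and PSMD7 higher in both lines, and PSMB9 was higher in Hs578T. Each is the 250 bases before the RefSeq transcription start on GRCh38.p14, in the direction of transcription, with motif matches in capitals.
PSME4, chr2:53970994-53971243, minus strand: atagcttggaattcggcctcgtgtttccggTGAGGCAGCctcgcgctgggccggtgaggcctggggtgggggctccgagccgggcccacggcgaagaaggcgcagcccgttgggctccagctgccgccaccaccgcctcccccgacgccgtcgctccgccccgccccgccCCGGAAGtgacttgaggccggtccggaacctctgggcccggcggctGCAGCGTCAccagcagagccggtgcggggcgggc
PSMC6, chr14:52706950-52707199, plus strand: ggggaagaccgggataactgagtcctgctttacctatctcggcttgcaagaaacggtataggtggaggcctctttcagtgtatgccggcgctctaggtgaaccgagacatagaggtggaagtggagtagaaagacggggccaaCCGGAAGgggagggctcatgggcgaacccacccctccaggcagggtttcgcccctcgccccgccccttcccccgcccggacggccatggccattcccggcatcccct
PSMA6, chr14:35292067-35292316, plus strand: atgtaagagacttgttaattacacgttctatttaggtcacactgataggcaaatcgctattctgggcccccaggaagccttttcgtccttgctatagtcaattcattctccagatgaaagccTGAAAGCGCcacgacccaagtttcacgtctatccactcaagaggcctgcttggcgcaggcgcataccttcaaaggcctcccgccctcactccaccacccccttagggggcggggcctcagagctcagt
PSMD7, chr16:74296564-74296813, plus strand: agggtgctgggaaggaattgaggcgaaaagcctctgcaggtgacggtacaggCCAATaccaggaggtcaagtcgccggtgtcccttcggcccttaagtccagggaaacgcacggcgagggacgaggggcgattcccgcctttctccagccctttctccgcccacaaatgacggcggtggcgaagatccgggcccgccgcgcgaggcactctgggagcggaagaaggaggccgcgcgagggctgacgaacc
PSMB9, chr6:32853942-32854191, plus strand: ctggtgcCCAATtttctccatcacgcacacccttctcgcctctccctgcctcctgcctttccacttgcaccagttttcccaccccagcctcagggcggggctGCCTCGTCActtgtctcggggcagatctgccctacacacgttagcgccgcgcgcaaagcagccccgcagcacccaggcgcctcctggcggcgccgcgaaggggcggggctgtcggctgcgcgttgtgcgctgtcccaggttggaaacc
The capitals in PSME4 mark an ETS element and, near either end, the core of the antioxidant response element, the site of NFE2L1 and NFE2L2. PSMC6 holds an ETS element alone, PSMA6 an antioxidant response element core alone, PSMD7 a CCAAT box alone, and PSMB9 a CCAAT box followed by an antioxidant response element core. Motifs were sought on both strands in the promoters of 42 member symbols, and 6 symbols were not matched in the promoter table. The antioxidant response element core (TGANNNNGC) was in 23 of the 42 (54.8%), against 35.4% of all 27305 promoters. The ETS element (CCGGAAG) was in 10 (23.8%), against 8.82% of all promoters, and the CCAAT box (CCAAT) in 18 (42.9%), against 33.0%. The interferon-related IRF core (GAAANNGAA), the GAS element (TTCNNNGAA) and the TATA box (TATAAA) were each in 5 (11.9%), against 7.06%, 6.78% and 11.1% of all promoters. The IRF core was present in PSMB10, PSME2, PSMA4, PSMB4 and PSMG4. A match of letters is a description of the sequence and not a binding site.

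Values are log2 values after normalisation by the authors, not scaled for gene length, and a gene without reads in a library has no value there. Read totals are not part of the deposited values, and depth shows only as the number of genes that a library lists, which was 20287 to 23282 in 18 libraries. Another 6 libraries stood apart. Hs578T DMSO replicates 1 and 2 listed 9967 and 17137 genes, Hs578T PHA-767491 replicate 1 listed 18090, SKBR7 lapatinib replicate 2 listed 18021 and SKBR7 co-treatment replicate 1 listed 16232. Hs578T PHA-767491 replicate 3 listed 23320 genes, among them 714 of 795 genes that SKBR7 libraries list and Hs578T libraries mostly do not, and Hs578T DMSO replicate 2 listed 451 of these. ESR1 and PGR, the hormone receptors absent from triple-negative cells, stayed at or below 0.83 where listed, and of the immune cell markers PTPRC reached at most 1.25 and CD14 2.23. ERBB2, which encodes HER2, was listed in every library, at 4.165 to 6.72 in Hs578T and 5.465 to 6.97 in SKBR7. Among epithelial markers, KRT18 was at 10.065 to 10.91 and CDH1 at 4.06 to 5.635 in SKBR7, while EPCAM reached at most −0.11 there. The epithelial keratin KRT8 ran from 10.76 to 11.87 in SKBR7, and from −3.52 to 9.71 in Hs578T, where the libraries that list SKBR7 genes are included. All results on co-treatment against PHA-767491 and DMSO are therefore also given without these 6 libraries, with the others quantile normalised anew (10 libraries of SKBR7, and 8 of Hs578T with a single one each for PHA-767491 and DMSO).

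Nearly all members were expressed in both lines. Of the 49, 41 were listed in all 24 libraries and 46 in at least 23, and their median value (over the 41) was 7.27 to 7.73 in the 18 libraries that did not stand apart. The exceptions were the tissue-restricted genes and the second PSMA1 identifier, which was listed in 5 libraries. PSMA8 was listed only in Hs578T co-treatment replicates 2 and 3, at −3.31 and −0.67. PSMB11 was listed in 7 libraries, at −3.67 to −1.38. Coordinates overlap another gene of the table for 30 of the 49, and 26 pseudogenes of members are in the table. Whether counting used strand is not stated, so reads of PSMB8 and PSMB9, which overlap each other and PSMB8-AS1, may be shared between them, as may those of PSMB9 and TAP1. The same holds for PSMA2 (with MRPL32), PSMA6 (RP11-561B11.2), PSMB10 (CTC-479C5.12), PSMD7 (AC009120.6) and both PSMA1 identifiers. It also holds for PSME4 (ACYP2), PSMC2 (DNAJC2), PSMD5 (PSMD5-AS1), PSMG2 (CEP76) and PSMG3 (PSMG3-AS1), whereas PSMC6 overlaps no other gene.

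Median levels per kb of mRNA, the scale on which genes can be compared, differed between the roles of the members, but the ranges overlapped. In Hs578T the core ran from 2.46 to 8.54, the regulatory genes from 4.07 to 8.77 and the immunoproteasome from 3.56 to 7.17. The order of the medians was not the same in both lines. The median of the 14 core subunits was 7.50 in Hs578T and 7.65 in SKBR7 (log2 value per kb, libraries that did not stand apart). The 20 regulatory genes had medians of 6.31 in Hs578T and 6.45 in SKBR7, the 4 core chaperones 5.55 in Hs578T and 5.62 in SKBR7, and the 5 activators and inhibitor 5.72 in Hs578T and 6.87 in SKBR7. The immunoproteasome median was 4.63 in Hs578T and 5.71 in SKBR7. Within the core the spread was wide. PSMA7 stood at 8.54 in Hs578T and 8.42 in SKBR7, and PSMA2, another subunit of the alpha ring, at 2.46 in Hs578T and 2.08 in SKBR7. In the regulatory particle PSMD2, a scaffold of the base, led Hs578T with 8.77 and stood at 7.996 in SKBR7, while PSMB4, a core subunit without an active site, led SKBR7 with 9.29 and stood at 8.35 in Hs578T. These levels rest on 1 annotated mRNA per gene, and reads of PSMA2 may be shared with genes that overlap it.

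At the active sites the constitutive subunit exceeded its immunoproteasome counterpart in both lines. PSMB8 came closest, with PSMB8 minus PSMB5 in the same library at −0.52 ± 0.17 in Hs578T (SD, n = 8) and −1.13 ± 0.09 in SKBR7 (SD, n = 10), on the log2 scale per kb. PSMB9 minus PSMB6 was −2.97 ± 0.19 in Hs578T and −2.09 ± 0.13 in SKBR7. PSMB10 minus PSMB7 was −4.22 ± 0.31 in Hs578T and −5.13 ± 0.35 in SKBR7. The 8 and 10 libraries do not overlap between lines for any of the 3 pairs, so PSMB8 and PSMB10 stood closer to their counterparts in Hs578T and PSMB9 in SKBR7. Within Hs578T, PSMB8 minus PSMB5 was −0.32, −0.26 and −0.43 in co-treated libraries, against −0.60, −0.67 and −0.75 under lapatinib, and these do not overlap. PSMB10 minus PSMB7 was −3.75, −3.87 and −3.99 in co-treated libraries, against −4.49, −4.47 and −4.24 under lapatinib.

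**Figure D1:**
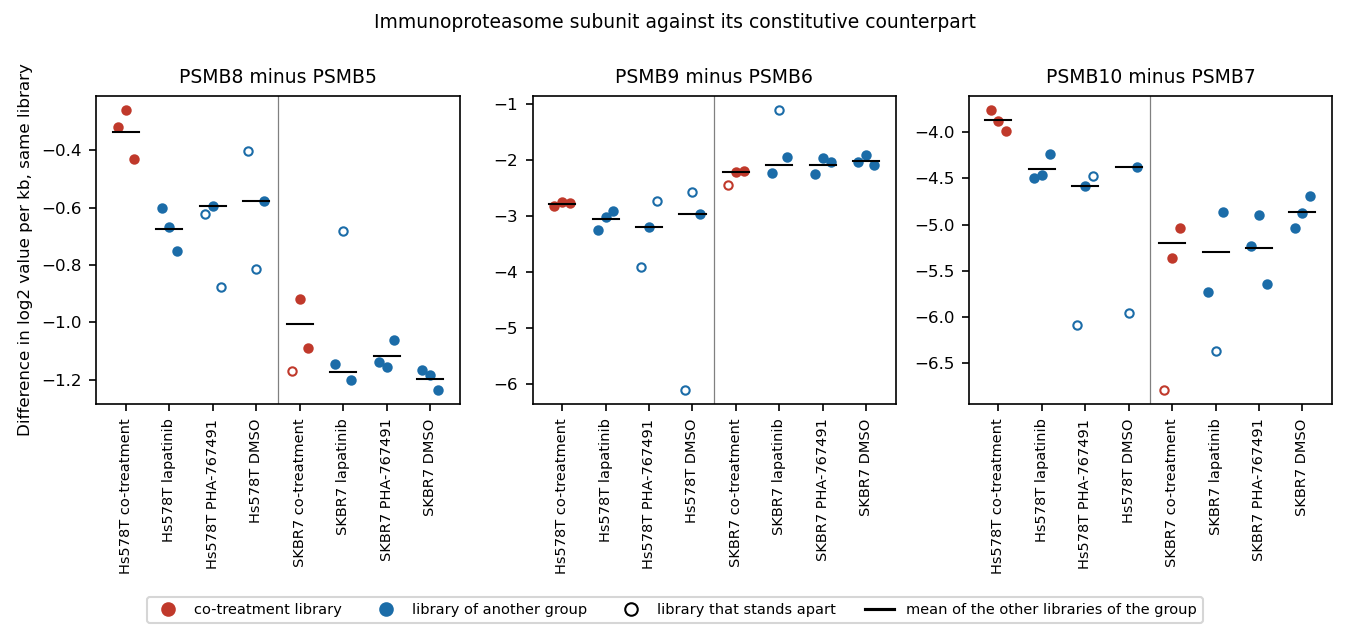
Difference in log2 value per kb between each immunoproteasome subunit and the constitutive subunit it replaces, in each library (points, 3 per group) of the 8 groups, with hollow points for the 6 libraries that stand apart and bars for the mean of the others. All values lie below 0, PSMB8 lies closest to its counterpart, and the co-treated Hs578T libraries lie above the lapatinib libraries of that line.

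To see what PHA-767491 adds to lapatinib, co-treatment was compared with lapatinib. In Hs578T, where the 6 libraries of the comparison listed 20368 to 23017 genes, 18 of 47 tested members were higher and 6 lower in co-treated cells (limma, adjusted p under 0.05 over all 21814 genes tested). Of all genes tested, 18.3% were higher and 11% lower, so more members were higher, as a share, than of all genes, and a like share was lower. The median difference was 0.20 over the members, against 0.18 over all genes, and single differences are best read against this shift. With each library centred on its median, which brings the median of all genes to 0.04, 4 members (PSMA2, PSMA6, PSMB9 and PSMB10) were higher and the same 6 lower. Of all 21814 genes, 2792 were higher and 3115 lower in that fit, so members higher were then a smaller share than genes higher. Fitted with all 12 Hs578T libraries, those that stand apart included, 0 members and 0 of 22159 genes passed.

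Of 14 core genes, 9 were higher and 0 lower, with a median difference of 0.28, and 3 of 3 immunoproteasome genes were higher, with a median of 0.64. The 20 regulatory genes split, with 4 higher, 3 lower and a median of 0.06. Of the 5 activators and inhibitor 2 were higher (PSME1 and PSME2) and 1 lower (PSME4), and of the 4 core chaperones 0 were higher and 2 lower (PSMG2 and PSMG3). With centred libraries the core had 2 higher, the immunoproteasome 2 higher and the regulatory genes 0 higher, while the 3, 1 and 2 lower calls of the regulatory, activator and chaperone genes stood. No test compared the classes with each other.

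**Figure D2:**
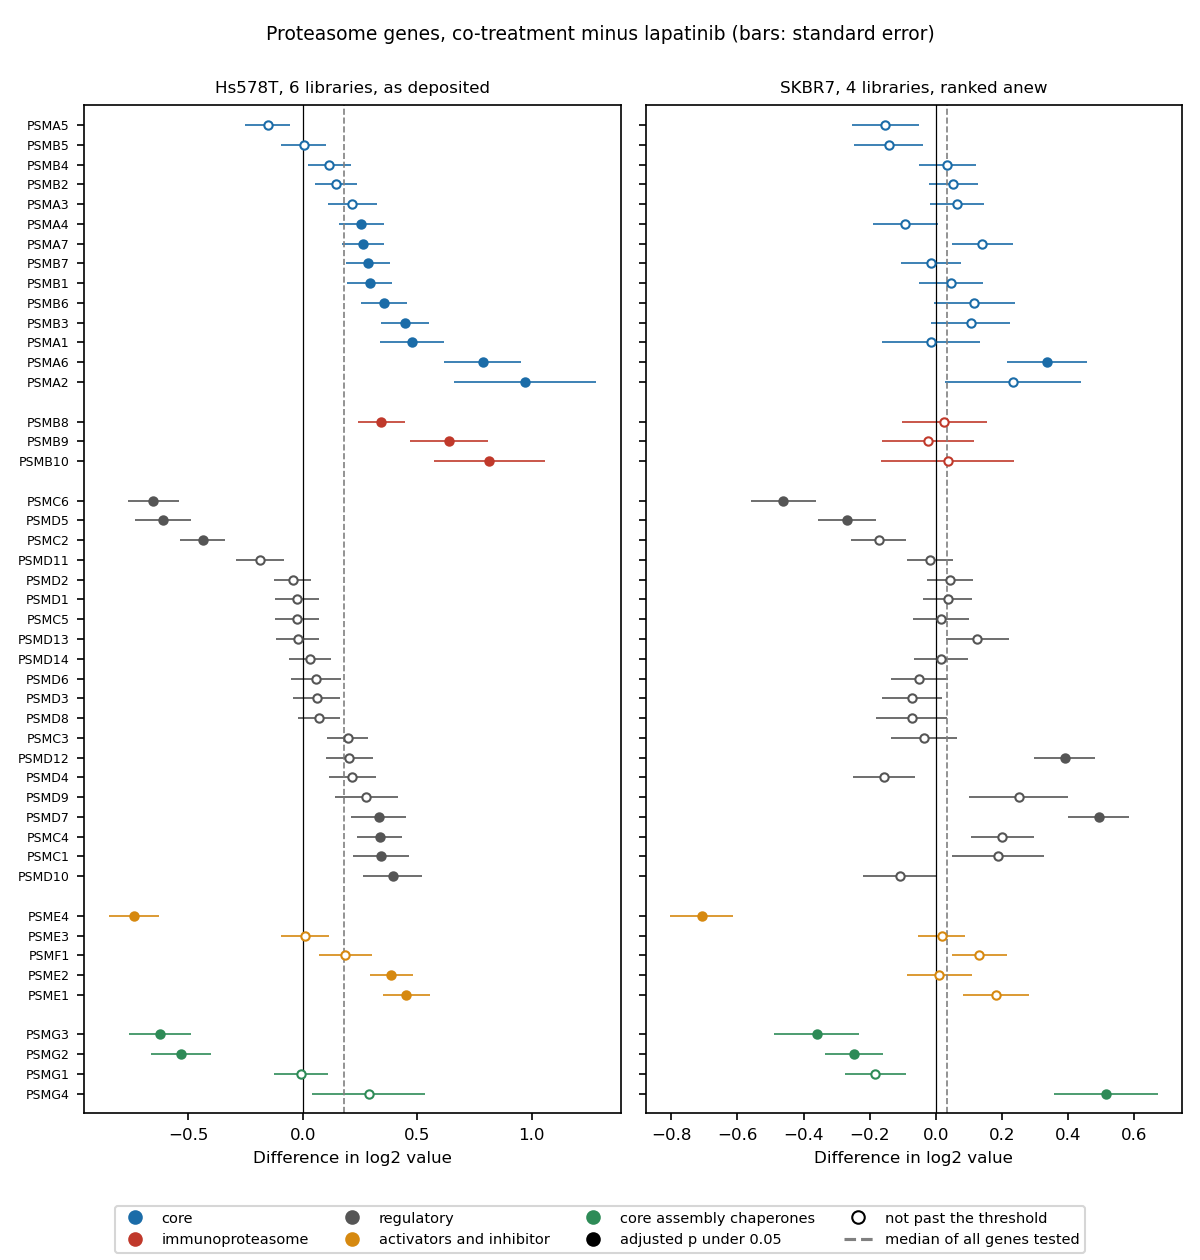
Difference in log2 value between co-treatment and lapatinib for 46 members, grouped by role, in Hs578T (left, 6 libraries as deposited) and SKBR7 (right, 4 libraries that did not stand apart, ranked anew), with standard errors. Filled points passed the threshold and the dashed line is the median of all genes tested. PSME4, PSMC6, PSMD5, PSMG2 and PSMG3 lie left of 0 and PSMA6 and PSMD7 right of it in both lines, all filled.

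PSME4, the PA200 activator of the nucleus, fell most among the members in Hs578T. In bulk RNA fewer cells that express a gene and less of its RNA per cell cannot be told apart. Its values were 6.62, 6.59 and 6.62 in co-treated Hs578T libraries, against 7.23, 7.45 and 7.36 under lapatinib, and the groups do not overlap. The difference was −0.74 ± 0.11 (SE, adjusted p = 5e-10). In SKBR7 it was at 5.86, 6.40 and 6.63 in co-treated libraries, against 7.18, 6.71 and 7.26 under lapatinib, 7.10, 7.45 and 7.14 under PHA-767491 and 7.31, 7.28 and 7.29 in DMSO. All co-treated SKBR7 libraries lie below all others of the line. PSME4 is the sole member that passed in SKBR7 with all libraries, against DMSO (−0.997 ± 0.22, adjusted p = 0.0252), while against PHA-767491 the difference was −0.94 ± 0.22 (adjusted p = 0.0704) and against lapatinib −0.76 ± 0.22 (adjusted p = 0.119). The call against DMSO was lost when SKBR7 co-treatment replicate 1 or 2, or any DMSO library, was left out (adjusted p 0.0574 to 0.141), with differences of −0.78 to −1.05.

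PSMC6, an ATPase of the regulatory base, was at 6.59, 6.66 and 6.54 in co-treated Hs578T libraries, against 7.42, 7.07 and 7.26 under lapatinib (difference −0.65 ± 0.11, adjusted p = 7.09e-08). PSMC2, another ATPase, was at 7.48, 7.59 and 7.57, against 8.01, 7.90 and 8.04 under lapatinib (−0.44 ± 0.10, adjusted p = 7.32e-05). Neither gene overlapped between the groups. The ATPases PSMC1 and PSMC4 were higher instead, each by 0.34, and these calls were lost with centred libraries. PSMD5, a chaperone of the base, was at 6.04, 6.09 and 6.18 in co-treated libraries, against 6.50, 6.79 and 6.84 under lapatinib (−0.61 ± 0.12, adjusted p = 5.13e-06). PSMG2, which pairs with PSMG1 to assemble the alpha ring, was at 5.68, 5.90 and 5.68, against 6.40, 6.07 and 6.39 under lapatinib (−0.53 ± 0.13, adjusted p = 0.000315). PSMG3, which pairs with PSMG4, was at 5.60, 5.80 and 5.33, against 6.45, 5.95 and 6.196 under lapatinib (−0.62 ± 0.13, adjusted p = 3.16e-05). Their partners did not pass, with differences of −0.01 for PSMG1 and 0.29 for PSMG4.

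Among the higher genes, the alpha ring subunits PSMA2 and PSMA6 led the core. PSMA6 was at 5.30, 5.41 and 5.29 in co-treated Hs578T libraries, against 4.61, 4.33 and 4.70 under lapatinib (0.79 ± 0.17, adjusted p = 3.55e-05). PSMA2 was at 3.59, 3.76 and 3.52, against 2.66, 2.41 and 2.89 under lapatinib (0.97 ± 0.31, adjusted p = 0.00852), and its call was lost without co-treatment replicate 1 (adjusted p = 0.0608) or 2 (adjusted p = 0.0815). Both genes were higher in every co-treated library. PSMA1 rose by 0.48 and PSMB3, a beta subunit without an active site, by 0.45. The other 5 core genes that passed, PSMB6, PSMB1, PSMB7, PSMA7 and PSMA4, were higher by 0.26 to 0.36. PSMB5, the chymotrypsin-like site, differed by 0.01 ± 0.10 (adjusted p = 0.98), whereas PSMB6 (0.36) and PSMB7 (0.29) passed. Leaving out co-treatment replicate 2 left 6 of 46 members higher, a share like that of all genes (2707 of 20725). Leaving out replicate 1 left 11 of 47 (2688 of 20807 genes). All 6 lower calls and those of PSMA1, PSMA6, PSMB3, PSMB9, PSME1 and PSME2 stood whichever library was left out, and the other 12 higher calls were each lost without at least 1 library.

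The interferon-inducible members were higher in co-treated Hs578T cells with the values as deposited. With centred libraries PSMB9 and PSMB10 kept their calls, and PSMB8, PSME1 and PSME2 did not. PSMB9 was at 5.23, 5.43 and 5.13 in co-treated libraries, against 4.65, 4.55 and 4.66 under lapatinib (0.64 ± 0.17, adjusted p = 0.00103). PSMB10 was at 4.30, 4.34 and 4.01, against 3.46, 3.14 and 3.60 under lapatinib (0.81 ± 0.24, adjusted p = 0.00427), although the call was lost without co-treatment replicate 1 (adjusted p = 0.0666) or 2 (adjusted p = 0.0575). For these genes the groups do not overlap. PSMB8 was at 7.58, 7.76 and 7.36, against 7.48, 6.98 and 7.21 under lapatinib, and these overlap (0.34 ± 0.10, adjusted p = 0.00421). The PSMB8 call was lost without co-treatment replicate 2, lapatinib replicate 2 or lapatinib replicate 3 (adjusted p 0.0813 to 0.146). PSME1 and PSME2, the subunits of PA28, were higher by 0.45 ± 0.10 (adjusted p = 9.78e-05) and 0.39 ± 0.09 (adjusted p = 0.000317). PSME3 differed by 0.01 ± 0.10 and PSMF1 by 0.19 ± 0.11, and neither passed.

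In SKBR7 with all libraries, 0 of 46 members passed in co-treatment against lapatinib (7 at an unadjusted p under 0.05), where 0.196% of all genes were higher and 0.713% lower. Without SKBR7 lapatinib replicate 2 and co-treatment replicate 1, 10 libraries stayed in the fit, 4 of them in the groups compared. With these 10 ranked anew, 4 members were higher and 5 lower, where 14.4% of all genes were higher and 16.8% lower. The lower ones were PSME4 (−0.71 ± 0.10, adjusted p = 5.16e-05), PSMC6 (−0.46 ± 0.10, adjusted p = 0.00205), PSMG3 (−0.36 ± 0.13, adjusted p = 0.0448), PSMD5 (−0.27 ± 0.09, adjusted p = 0.0308) and PSMG2 (−0.25 ± 0.09, adjusted p = 0.0453). The higher ones were PSMG4 (0.51 ± 0.16, adjusted p = 0.0204), PSMD7 (0.49 ± 0.09, adjusted p = 0.000831), PSMD12 (0.39 ± 0.09, adjusted p = 0.00444) and PSMA6 (0.34 ± 0.12, adjusted p = 0.0464). PSMD7 and PSMD12 are subunits of the lid of the regulatory particle. With all libraries these differences were −0.76 for PSME4, −0.45 for PSMC6, −0.82 for PSMG3, −0.13 for PSMD5 and 0.04 for PSMG2, so that the direction of PSMG2 turned with the choice of libraries. Of the other core chaperones, PSMG1 did not pass (−0.18) and PSMG4 was among the higher genes. All 5 members lower in SKBR7 (100%) were among the 6 lower in Hs578T (83.3% of these), and 2 of the 4 higher in SKBR7 (50%; PSMA6 and PSMD7) were among the 18 higher in Hs578T (11.1%). Over the 46 members that both lines tested, which share no library between lines, the differences had a Pearson correlation of 0.70 and a Spearman correlation of 0.59, and 31 had the same sign. Members are not independent of each other, and this is a description. With all SKBR7 libraries as deposited the values were 0.54, 0.40 and 28. The overlap of calls and the correlation over all genes are not given here, so neither is shown to be particular to the members.

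The values per library show these genes in SKBR7. PSMC6 was at 6.38, 6.73 and 6.78 in co-treated libraries, against 7.25, 6.81 and 7.18 under lapatinib, with no overlap. PSMD5 was at 5.86, 6.43 and 6.49 in co-treated libraries, against 6.72, 5.72 and 6.74 under lapatinib, and the lapatinib library that stands apart is the lowest of all. PSMA6 was at 4.65, 5.14 and 5.35, against 4.86, 2.70 and 4.96 under lapatinib, and the groups overlap, with lapatinib replicate 2, which stands apart, the lowest of all. PSMD7 was at 6.73, 7.15 and 7.11 in co-treated libraries, against 6.61, 6.29 and 6.65 under lapatinib, with no overlap.

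**Figure D3:**
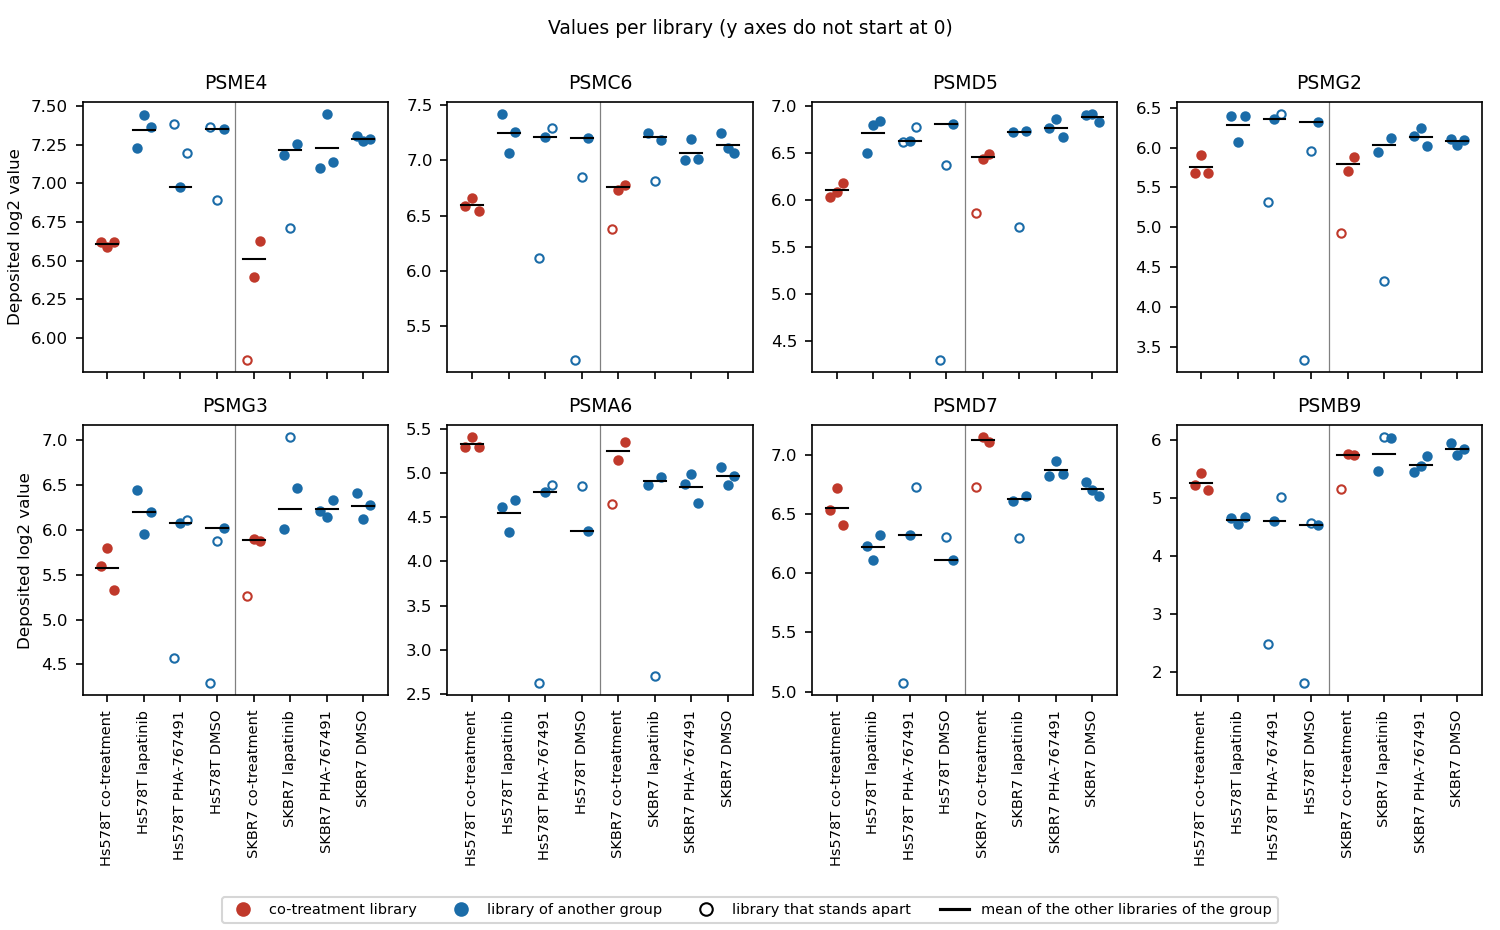
Deposited log2 values of 8 members in all 24 libraries (points, 3 per group where listed), with co-treated libraries in red, the 6 libraries that stand apart as hollow points and bars for the mean of the others in each group. In both lines the solid co-treated points lie below all other solid points for PSME4, PSMC6, PSMD5, PSMG2 and PSMG3 and above them for PSMA6 and PSMD7, whereas for PSMB9 they lie above the others in Hs578T alone.

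Next, co-treatment was set against PHA-767491 alone and DMSO. These comparisons share their co-treated libraries with each other and with the comparison against lapatinib, so they are not independent. With all Hs578T libraries 0 of 46 members passed against PHA-767491 alone (1 had an unadjusted p under 0.05; 0% of all genes in either direction) and 0 of 47 against DMSO (7 at an unadjusted p under 0.05; 0% of all genes). The medians were 0.34 over members and 0.23 over all genes against PHA-767491, and 0.62 over members and 0.92 over all genes against DMSO. Without the libraries that stand apart, 5 members were higher and 5 lower against PHA-767491 (10.7% and 13.1% of all genes), and 15 higher and 6 lower against DMSO (19% and 18.1% of all genes). These calls take the spread from the other groups, since 1 library each of PHA-767491 and DMSO remained, and that library is assumed to vary like the rest. PSME4 differed by −0.36 against PHA-767491 and −0.77 against DMSO, PSMC6 by −0.61 and −0.64, PSMD5 by −0.52 and −0.74, and PSMG2 by −0.60 and −0.60, all called lower. PSMC2 was called lower too, at −0.32 and −0.29. Against DMSO with all libraries, where none passed, the direction of most of these turned, with differences of 0.18 for PSMC6, 0.27 for PSMD5, 0.55 for PSMG2 and 0.35 for PSMC2, while PSME4 stayed below DMSO (−0.60). PSMA6 differed by 0.58 against PHA-767491 and 0.93 against DMSO, PSMB10 by 0.92 and 0.82, and PSMB9 by 0.71 and 0.67, all called higher. PSMA2 passed against PHA-767491 (0.87, adjusted p = 0.0258) and not against DMSO (0.44, adjusted p = 0.202), and PSMG3 the other way (−0.49, adjusted p = 0.0508 and −0.48, adjusted p = 0.0417, though 0.18 against DMSO with all libraries).

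In SKBR7 with all libraries 0 of 47 members passed against PHA-767491 alone (2 had an unadjusted p under 0.05), where 0.0184% of all genes were higher and 0.446% lower. Against DMSO 0 of 46 were higher and 1 lower, PSME4, where 0.0911% of all genes were higher and 1.7% lower. Without the libraries that stand apart, 2 members were higher and 6 lower against PHA-767491 (14.5% and 16.5% of all genes), and 7 higher and 5 lower against DMSO (16.9% and 18.4% of all genes). PSME4 differed by −0.72 in both comparisons. The other members called lower in both were PSMC6 (−0.32 against PHA-767491 and −0.33 against DMSO), PSMD5 (−0.31 and −0.36), PSMG2 (−0.35 and −0.22) and PSMG3 (−0.35 and −0.32). PSMA6 (0.39 and 0.40) and PSMD7 (0.25 and 0.48) were called higher in both, and PSMG4 (0.71), PSMD12 (0.37), PSMA3 (0.25), PSME1 (0.25) and PSMC4 (0.24) against DMSO. With all libraries PSMG4 differed from DMSO by −0.05 and did not pass. The immunoproteasome genes did not pass in any co-treatment comparison of SKBR7. Without the libraries that stand apart PSMB9 differed from lapatinib by −0.02, from PHA-767491 by 0.16 and from DMSO by −0.03, and PSMB10 by 0.04, 0.08 and 0.03.

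Among libraries that did not stand apart, as deposited, the co-treated ones lay wholly below all other groups of the line for 7 of 46 members in Hs578T and 7 in SKBR7, and wholly above for 17 in Hs578T and 8 in SKBR7. Of all genes listed in as many libraries, 20.4% lay wholly below and 27.6% wholly above in Hs578T, and 15.4% and 13.9% in SKBR7. The members wholly below were no larger a share than this in either line. Those below in both lines were PSME4, PSMC6, PSMC2, PSMD5, PSMG2 and PSMG3. The share of all genes below in both lines is not given here. For PSMC6 the 3 co-treated Hs578T libraries ran from 6.54 to 6.66, against 7.07 to 7.42 in the 5 others, and the 2 co-treated SKBR7 libraries from 6.73 to 6.78, against 7.01 to 7.25 in the 8 others.

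Single drugs moved no member past the threshold. PHA-767491 against DMSO gave 0 of 46 in Hs578T and 0 of 46 in SKBR7 (0 at an unadjusted p under 0.05 in both), and lapatinib against DMSO 0 of 47 in Hs578T (4 at an unadjusted p under 0.05) and 0 of 46 in SKBR7 (1, PSME3 at −0.41). Of all genes 0% passed in either direction in these 4 comparisons. In SKBR7, where the DMSO and PHA-767491 libraries listed 20740 to 23103 genes, the median over members for PHA-767491 against DMSO was −0.04, against −0.18 over all genes. The Hs578T comparisons rest on a DMSO group in which 2 of 3 libraries stand apart. Without DMSO replicate 3, the remaining one, 3 of 46 members were higher for PHA-767491 and 8 of 46 for lapatinib. Of all genes, 3476 of 16566 and 5205 of 16471 were higher in these fits, larger shares than of the members.

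Whether the response to added PHA-767491 differed between lines was tested with an interaction term, Hs578T minus SKBR7. With the 12 libraries, 0 of 46 members passed (5 at an unadjusted p under 0.05), where 0.0105% of all genes passed in each direction. Without the 2 SKBR7 libraries that stand apart, ranked anew, 1 member passed, PSMB9, whose response was larger by 0.60 ± 0.18 in Hs578T (adjusted p = 0.0452), where 5.38% of all genes were higher and 7.58% lower. This call was not made with the values as deposited. For PSME4, PSMC6 and the other members lower in both lines no difference between lines passed, which does not show that the responses were equal.

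The lines themselves differed in their proteasome genes. Over lapatinib and co-treated libraries, 13 of 46 members were higher and 9 lower in Hs578T than in SKBR7, where 24.8% of all genes were higher and 14% lower. The median difference was 0.15 over members, against 0.26 over all genes. Of the 20 regulatory genes 10 were higher and 4 lower, of the 14 core genes 0 higher and 2 lower, of the 5 activators and inhibitor 1 higher and 2 lower, and 0 of the 4 core chaperones passed. The 3 immunoproteasome genes split, with PSMB10 (1.86 ± 0.45, adjusted p = 0.00243) and PSMB8 (0.47 ± 0.15, adjusted p = 0.0151) higher and PSMB9 (−0.75 ± 0.21, adjusted p = 0.0064) lower in Hs578T. The PSMB8 call was lost without Hs578T co-treatment replicate 2 (adjusted p = 0.0564) or lapatinib replicate 1 (adjusted p = 0.0567). With centred libraries 7 members were higher and 13 lower, where 4506 of 19033 genes were higher and 4316 lower. Members higher were then a smaller share than genes higher, and members lower a larger share than genes lower. Without the libraries that stand apart, ranked anew, 17 members were higher and 17 lower (34.5% and 37.5% of all genes).

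**Figure D4:**
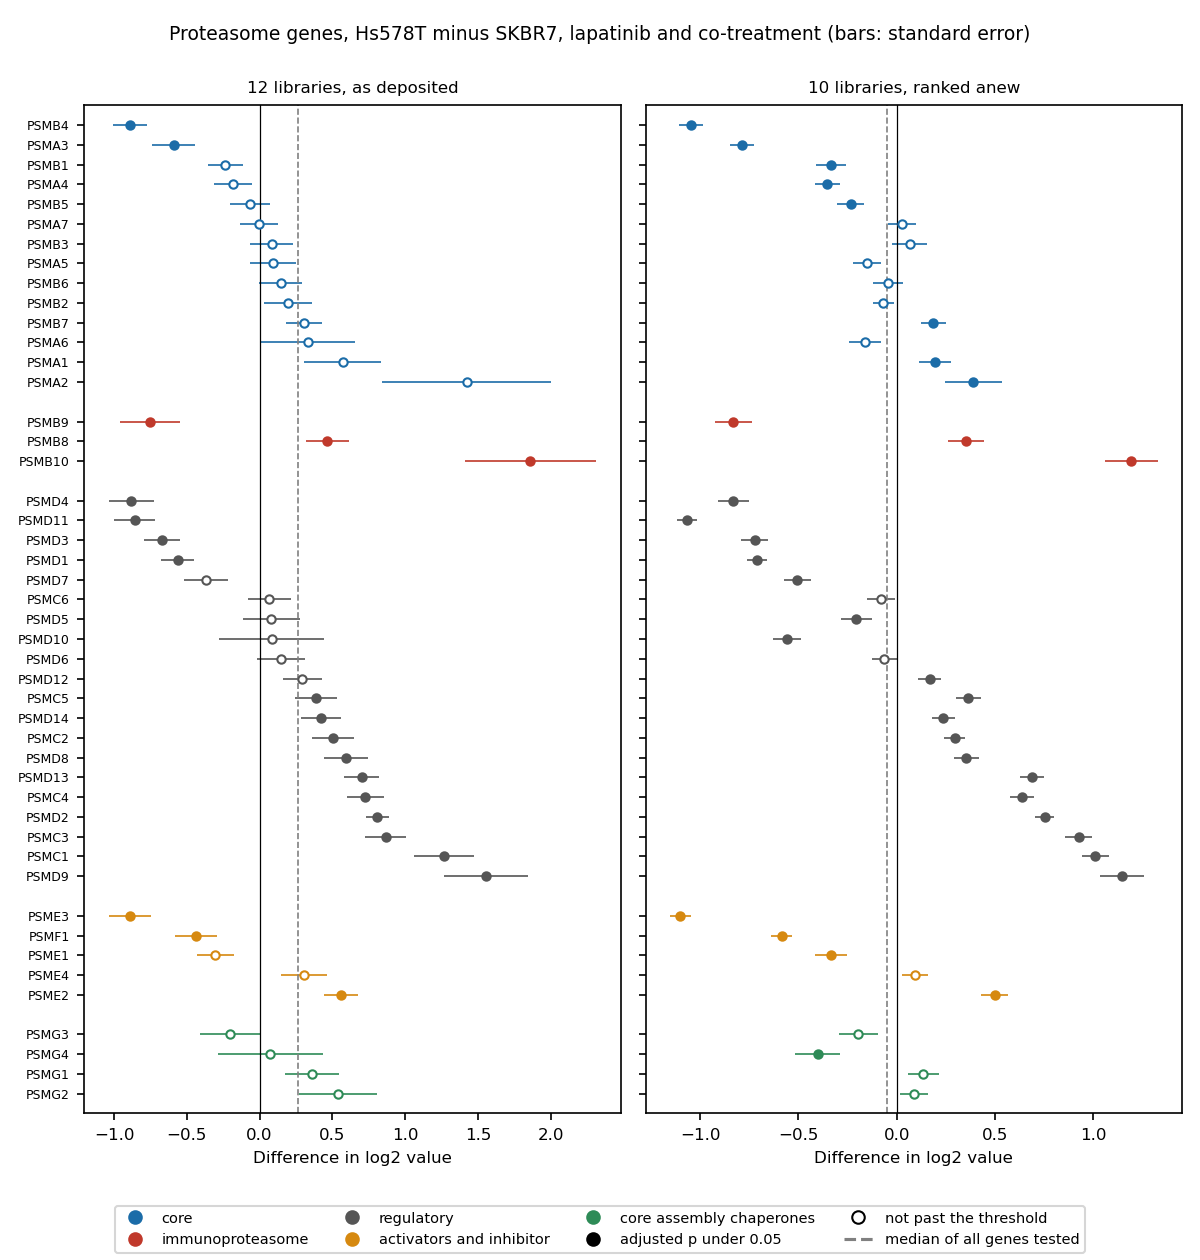
Difference in log2 value between Hs578T and SKBR7 over lapatinib and co-treated libraries for 46 members, grouped by role, as deposited (left, 12 libraries) and without the 2 libraries that stand apart, ranked anew (right, 10 libraries), with standard errors, filled points past the threshold and the dashed line at the median of all genes tested. PSMB10 and PSMD9 lie farthest right among filled points on the left panel, PSMB4 and PSME3 farthest left.

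Some differences between lines were large and without overlap. PSMB4 was at 8.26, 8.39 and 8.16 in co-treated and 8.30, 7.97 and 8.20 in lapatinib libraries of Hs578T, against 8.88, 9.24 and 9.28 in co-treated and 9.14, 8.77 and 9.30 in lapatinib libraries of SKBR7 (−0.89 ± 0.12, adjusted p = 3.14e-06). PSME3 was at 7.42, 7.38 and 7.28 in co-treated and 7.37, 7.24 and 7.43 in lapatinib libraries of Hs578T, against 8.06, 8.36 and 8.52 in co-treated and 8.32, 7.66 and 8.53 in lapatinib libraries of SKBR7 (−0.89 ± 0.14, adjusted p = 3.79e-05). The lid subunit PSMD11 (−0.86 ± 0.14) was lower in Hs578T as well, and so was the ubiquitin receptor PSMD4 (−0.88 ± 0.16), whose libraries overlap. PSMD2 was at 10.30, 10.22 and 10.31 in co-treated and 10.32, 10.30 and 10.34 in lapatinib libraries of Hs578T, against 9.23, 9.52 and 9.57 in co-treated and 9.42, 9.60 and 9.58 in lapatinib libraries of SKBR7 (0.81 ± 0.08, adjusted p = 8.24e-08). PSMD9, a chaperone of the base, was higher in Hs578T by 1.56 ± 0.29 (adjusted p = 0.000207) and the ATPase PSMC1 by 1.27 ± 0.20 (adjusted p = 4.15e-05). For both genes every lapatinib and co-treated library of Hs578T lay above every such library of SKBR7. The ATPase PSMC3 was higher by 0.87 ± 0.14 (adjusted p = 4.97e-05), with overlap. PSMB5 and PSMB6 did not pass (adjusted p = 0.749 and 0.477).

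Genes that work with the proteasome were measured alongside. Of 24 partner genes tested in Hs578T, among them ubiquitin genes, shuttle factors and subunits outside the PSM names, 5 were higher and 8 lower in co-treatment against lapatinib (median −0.11), where 18.3% of all genes were higher and 11% lower. The shuttle factors UBQLN2 (−0.97) and UBQLN1 (−0.71) and KIAA0368 (−0.48), which encodes a proteasome adaptor, were among those that fell. SHFM1, a lid subunit, rose by 0.46, and POMP, the maturation factor of the core, by 0.32. NFE2L1, the factor that drives proteasome genes when proteasome activity is low, differed by −0.26 (adjusted p = 0.0245). VCP, the ATPase that extracts ubiquitinated proteins, was lower in Hs578T (−0.42) and was the sole partner that passed in SKBR7 with all libraries, at −0.51 against lapatinib (adjusted p = 0.0331) and −0.53 against DMSO (adjusted p = 0.0216). Of 12 antigen processing genes 7 were higher and 2 lower in that comparison (median 0.24). The peptide transporter gene TAP2 rose by 0.92 and the trimming peptidases ERAP1 and ERAP2 by 0.76 and 0.63, whereas the transcriptional activators NLRC5 (−0.76) and IRF1 (−0.61) fell. Between the lines 7 antigen processing genes were higher and 2 lower in Hs578T, with ERAP2 5.50 and HLA-B 2.30 higher and ERAP1 −0.82 and TAP1 −0.53 lower, where 24.8% of all genes were higher and 14% lower.

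The lengths of the members were set beside their differences. Across the 46 members the Spearman correlation of the difference with mRNA length was −0.51 for co-treatment against lapatinib in Hs578T and −0.18 in SKBR7 without the libraries that stand apart, −0.43 there against PHA-767491 and −0.30 against DMSO, as descriptions across genes. With the length of the whole gene, introns included, it was −0.28 against lapatinib in Hs578T, and −0.02, −0.22 and −0.04 in SKBR7 against lapatinib, PHA-767491 and DMSO. With all SKBR7 libraries the values against lapatinib were 0.07 with mRNA length and 0.29 with gene length. PSME4 has an mRNA of 7250 bases and a gene of 106.8 kb, PSMG3 an mRNA of 1428 bases and a gene of 3.68 kb, and both were lower. The part of length in these results was not tested.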

How the data were processed

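RNA was sequenced from 24 libraries (stranded mRNA kit, paired ends). The authors counted read pairs per gene with featureCounts 1.4.6 on GRCh38 with the Ensembl annotation, scaled them with edgeR by TMM, applied quantile normalisation and deposited log2 values. Of aligners, STAR is given in the methods and HiSat2 in the labels. A second deposited table of group averages and the authors' own comparisons was not used. Of 36517 lines, 36 repeated identifiers were dropped and columns were matched to libraries by their names. Members and lists were chosen with earlier results of these data known, and so was the decision to fit Hs578T co-treatment against lapatinib in its own 6 libraries.

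Differences were tested with limma 3.58.1 (R 4.3.3; lmFit, eBayes with a variance trend, two-sided, Benjamini-Hochberg over all genes tested) on genes listed in at least 3 libraries of a fit and in each group compared. The other comparisons within a line used its 12 libraries, and comparisons between lines the 12 lapatinib and co-treated libraries. No value was imputed. Ranking anew means quantile normalisation over genes listed in every library kept. Levels per kb subtract the log2 length of the GENCODE canonical mRNA. Named genes were the active-site pairs, activators and inhibitor, PSMA8, PSMB11, up to 5 passing members a direction by size and up to 4 passing genes of each related list. Some genes that this rule or the marker list names are not reported here. On simulated tables of 200 changed genes, changes of 1 and 2 on the log2 scale were recovered in 28% and 38% for Hs578T co-treatment against lapatinib, 5% and 37% for SKBR7, and 24% and 46% between lines, with 1, 3 and 4 unchanged genes called. The changed genes were drawn from all genes tested, so these rates do not describe the members. Python 3.11.15, pandas 2.3.3, numpy 2.4.6 and matplotlib 3.10.9 made the tables and figures.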

Additional observations from a re-analysis of the deposited data

Results flagged for a closer look

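In 2 members all co-treated libraries lay on one side of all DMSO libraries in Hs578T and on the opposite side in SKBR7, a difference between lines that was not tested in this contrast. PSMC5, an ATPase of the regulatory base, differed by 0.63 in Hs578T (means of 7.95 in co-treatment and 7.32 in DMSO) and by −0.31 in SKBR7 (7.39 in co-treatment and 7.70 in DMSO). PSMB10 differed by 1.77 in Hs578T and by −0.97 in SKBR7. Of the Hs578T DMSO libraries 2 stand apart, PSMB10 has no value in one of them, and the lowest co-treated SKBR7 library is one that stands apart. Without these libraries PSMC5 differed by 0.09 in Hs578T (adjusted p = 0.573, limma) and −0.06 in SKBR7 (adjusted p = 0.555), and PSMB10 differed by 0.82 in Hs578T (adjusted p = 0.00764, limma) and 0.03 in SKBR7 (adjusted p = 0.913).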

How the results depend on the processing

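No member called with the values as deposited reversed its direction under an alternative. Signs did turn among members called after the libraries that stand apart were left out and the others ranked anew. In Hs578T co-treatment against DMSO the signs of PSMC2, PSMC6, PSMD5, PSMG2 and PSMG3 were opposite with all libraries. In SKBR7 co-treatment the sign was opposite for 1 of 9 members against lapatinib (PSMG2) and 1 of 12 against DMSO (PSMG4). Between lines it was opposite for 3 of 34 (PSMD5, PSMD10 and PSMG4). The 12 and the 34 include members that also passed with all libraries, and these did not turn. For co-treatment against lapatinib in Hs578T, the 18 members higher became 4 with centred libraries, where 2792 of 21814 genes were higher. They became 2 without a variance trend (725 of 21814 genes) and 10 with a replicate block (2848 of 18783 genes). The 6 lower became 1 without a variance trend (831 of 21814 genes). With all 12 libraries 0 members and 0 of 22159 genes were higher or lower. Leaving out 1 library gave 6 higher (without co-treatment replicate 2, 2707 of 20725 genes) to 22 higher (without lapatinib replicate 1, 3539 of 20934 genes). Without co-treatment replicate 1 it gave 11 higher (2688 of 20807 genes). Members lower were 6 to 7 in these fits (7 without lapatinib replicate 2, 2795 of 21228 genes). PSME4 and PSMA6 kept their calls in 6 of 7 settings and all 6 fits with a library left out. Same-numbered replicates correlated at −0.37 to 0.58, in no comparison all over 0.1. They were not compared with differently numbered libraries, so this does not settle whether the numbers pair the libraries. The replicate block moved no other count of members past 1.5 times.

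Without the libraries that stand apart, the values ranked anew are given in the report. As deposited, an alternative chosen after seeing the data, SKBR7 co-treatment gave 2 members higher and 2 lower against lapatinib (860 and 1228 of 21057 genes). Against PHA-767491 1 was lower (1061 of 21543 genes), and against DMSO 2 were higher and 3 lower (695 and 2060 of 21712 genes). Between lines 15 were lower in Hs578T (5002 of 18751 genes). The Hs578T counts against PHA-767491 and DMSO are left out here, as 1 library remained in each of those groups. Ranked anew with all libraries, 1 member was lower for Hs578T co-treatment against DMSO (794 of 9400 genes). For SKBR7 co-treatment 3 were higher and 3 lower against lapatinib (1590 and 1747 of 14170 genes). Against PHA-767491 1 was lower (1299 of 14170 genes), and against DMSO 3 were higher and 2 lower (1251 and 1649 of 14170 genes). Between lines 14 were lower (4289 of 12967 genes). Ranked anew without the libraries that stand apart, SKBR7 co-treatment gave 4 higher and 5 lower against lapatinib (14.4% and 16.8% of all genes). Against PHA-767491 it gave 2 and 6 (14.5% and 16.5%), and against DMSO 7 and 5 (16.9% and 18.4%). Between lines 17 were lower (37.5%), and 1 was higher for the difference in response (5.38%). For SKBR7 co-treatment against PHA-767491, genes listed in every library gave 1 lower (230 of 14170 genes). The 6 libraries compared also gave 1 lower (354 of 21120 genes). Against DMSO, centring and no variance trend gave 0 lower (412 and 0 of 21949 genes). Between lines, 7 were higher with centring and 8 without a variance trend (4506 and 4258 of 19033 genes). With all 24 libraries 5 were higher (2965 of 17647 genes).

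With 1 library left out, members higher ran from 0 to 11 for Hs578T co-treatment against DMSO, 0 to 3 for PHA-767491 and 0 to 8 for lapatinib against DMSO, each highest without DMSO replicate 3. In those 3 fits 6365 of 16489, 3476 of 16566 and 5205 of 16471 genes were higher, larger shares than of the 46 members. Members lower in SKBR7 co-treatment ran from 0 to 1 against lapatinib, 0 to 1 against PHA-767491 and 0 to 3 against DMSO. The 3 came without lapatinib replicate 2, where 1589 of 21914 genes were lower. Between lines 10 to 16 were higher (16 without SKBR7 lapatinib replicate 3, 5187 of 18042 genes). In these fits 8 to 14 were lower (14 without SKBR7 lapatinib replicate 2, 3342 of 18839 genes). The cause of these shifts was not tested. With no read counts, precision at low values, such as those of PSMA2 and PSMB10, is unknown.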
